A study of Mus musculus with 8 samples.

Results

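The genes described here are 10 genes of megakaryocytes and platelets, namely Pf4, Ppbp, Gp1ba, Gp1bb, Gp9, Gp5, Gp6, Treml1, Vwf and Selp, taken by symbol from the 24346 genes listed in the expression files. They were chosen with results of the comparisons below known, so their differences are given as a description, with no p-value for a single gene. Whether one of them was called in a fit over all genes is stated beside the share of all genes called, and is no independent evidence about a gene chosen in this way. RNA was sequenced from primary bone marrow cells of WT C57BL/6 mice, female or male and 8 to 20 weeks old, to ask how contact with red blood cells (RBCs) alters gene expression in stem and progenitor cells. LSK cells were sorted as Lin- cells with Sca-1 and c-Kit, and HSCs by the same gate with the further requirement of CD150 and lack of CD48, so the LSK gate is the wider one and takes in the HSC gate. All 4 groups (HSCs and LSK cells, each without or with RBCs, 2 libraries per group) were cultured for 1 day in serum-free medium with thrombopoietin, the main growth factor of megakaryocytes, and stem cell factor. The RBCs came from mouse blood that had been passed through a leukocyte filter and irradiated, and after culture the suspensions were hemolyzed and CD45-positive cells sorted, so each library holds whatever cells the sorted ones had become. The labels do not say whether the 2 libraries of a group came from separate cultures or mice, and p-values below therefore measure only the spread between these libraries.

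Megakaryocytes are the large bone marrow cells that shed platelets. They fill alpha granules with chemokines and adhesive proteins, and they carry the GPIb-IX-V complex, a receptor made of the products of Gp1ba, Gp1bb, Gp9 and Gp5 that catches platelets on von Willebrand factor at sites of vessel injury. Some HSCs already transcribe part of this program, and Vwf and Selp are known from HSCs biased toward the platelet lineage.

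Levels are in FPKM, fragment counts corrected for the length of the transcript and the size of the library, which allows levels to be compared between genes per length. Differences are on the log2(FPKM + 1) scale, which understates the change of genes with low levels, and come from a single limma fit of the 4 groups over the 12003 genes that reached 1 FPKM in 2 or more libraries. A gene is called where the Benjamini-Hochberg adjusted p is under 0.05 and the difference at least 2-fold. Values in each library are given with replicate 1 first. The labelled cell types had the markers that separate them: Slamf1, which encodes CD150, was at 10.2 and 10.7 FPKM in HSCs without RBCs against 4.58 and 4.63 FPKM in LSK cells without RBCs, and Flt3, a gene of multipotent progenitors, at 18.7 and 22.5 FPKM against 97.3 and 89.1 FPKM. The sum of all FPKM values in a library ran from 680942 to 752107. The absolute depth is unknown, and the relative depth of the libraries, read from the steps of low values, lay between 0.886 and 1.13. In bulk RNA, fewer cells that express a gene and less of its RNA per cell cannot be told apart.

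Of the 10 genes, 9 passed the filter on low values. Gp6, which encodes the platelet collagen receptor GPVI (chromosome 7, 4363965 to 4397744 in GRCm38), was listed at 0 in all 8 libraries and entered no comparison. The mean over all libraries was highest for Pf4, at 83.7 FPKM, followed by Selp at 26.8 FPKM and Gp5 at 16.0 FPKM. Ppbp had the lowest mean of the genes that passed, at 1.87 FPKM.

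**Figure D1:**
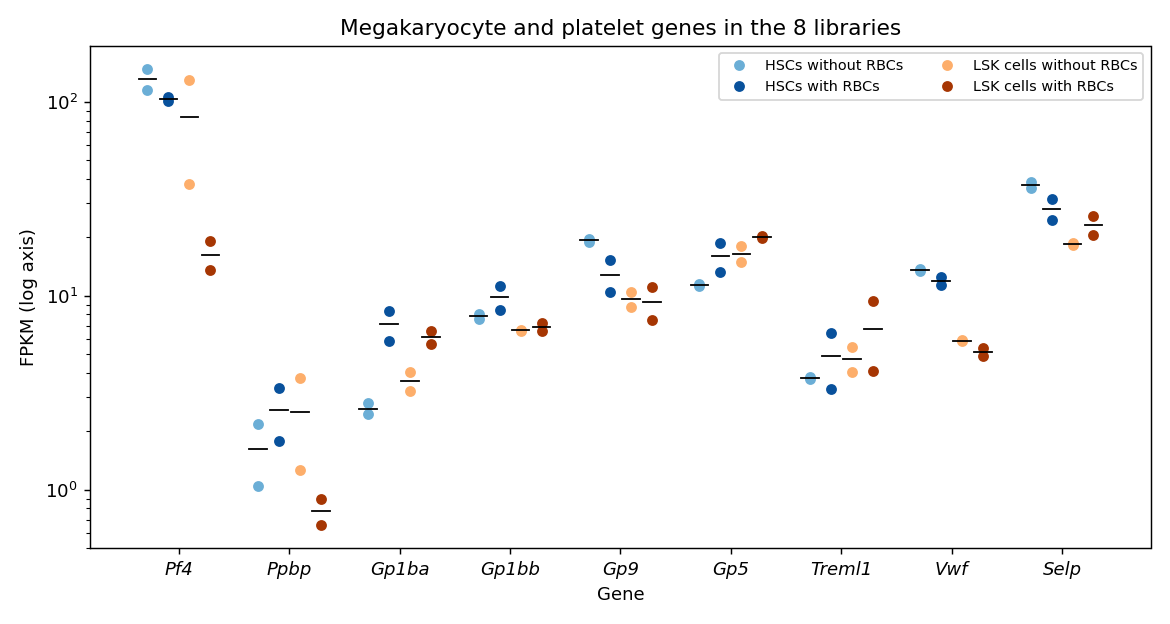
FPKM (log axis) of the 9 genes that passed the filter, with 1 point per library, coloured by group, and a bar at each group mean. Pf4 lies between 13.5 and 19.1 FPKM in both LSK libraries with RBCs and at 37.8 FPKM or more in the other 6 libraries, and Vwf lies lower in all 4 LSK libraries than in all 4 HSC libraries.

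The sequences in front of the start sites are shown for the 4 genes whose levels are followed most closely below: Pf4, Gp1ba and Gp9, which encode a chemokine and a pair of receptor subunits with different patterns, and Selp. They are the 250 bases before the RefSeq start site (GRCm38.p6), on the strand of the gene, which is the plus strand for all 4. Capitals mark the word AGATAA, the word AGATAG, the word TGATAA and the word TGATAG, which GATA factors such as GATA1 can bind, and the words AGGAAG and then CGGAAG, which ETS factors such as FLI1 can bind, in either orientation.
Pf4, chr5:90772185-90772434: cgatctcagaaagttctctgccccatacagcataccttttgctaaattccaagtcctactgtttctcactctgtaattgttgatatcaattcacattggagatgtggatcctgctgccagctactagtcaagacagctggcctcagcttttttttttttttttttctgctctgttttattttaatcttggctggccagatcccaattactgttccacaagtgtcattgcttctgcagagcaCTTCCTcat
Gp1ba, chr11:70638872-70639121: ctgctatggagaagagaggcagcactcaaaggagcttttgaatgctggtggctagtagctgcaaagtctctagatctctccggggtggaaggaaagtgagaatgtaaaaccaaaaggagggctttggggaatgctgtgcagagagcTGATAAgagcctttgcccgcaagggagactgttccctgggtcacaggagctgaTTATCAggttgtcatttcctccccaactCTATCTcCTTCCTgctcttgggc
Gp9, chr6:87777820-87778069: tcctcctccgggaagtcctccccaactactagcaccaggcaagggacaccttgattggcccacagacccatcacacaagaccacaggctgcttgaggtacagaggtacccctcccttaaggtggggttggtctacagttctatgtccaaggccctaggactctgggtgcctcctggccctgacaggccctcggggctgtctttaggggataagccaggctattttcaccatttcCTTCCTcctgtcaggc
Selp, chr1:164115014-164115263: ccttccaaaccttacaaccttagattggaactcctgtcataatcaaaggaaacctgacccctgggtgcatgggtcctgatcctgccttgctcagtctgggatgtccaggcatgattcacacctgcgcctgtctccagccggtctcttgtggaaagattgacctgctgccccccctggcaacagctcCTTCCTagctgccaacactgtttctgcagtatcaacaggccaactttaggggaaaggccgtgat
In the Gp1ba stretch 3 GATA words and 1 ETS word stand in the last 104 bases before the start. The Gp9 stretch holds an ETS word that begins 16 bases before the start, the same distance as in Gp1ba, and no GATA word. In Pf4 an ETS word begins 9 bases before the start and a GATA word lies after it, in the stretch chr5:90772455-90772484, which reads actgggcaggcagtgaAGATAAaacgtgct. The window searched reaches from 250 bases before to 50 bases after the start. RefSeq promoters were found for 9 of the 10 genes, all but Vwf. A GATA word was present in 5 of the 9 windows (Pf4, Gp1ba, Gp1bb, Gp5 and Gp6) and in 29.8% of all 32851 mouse windows of this length. An ETS word was present in 6 of the 9 (Pf4, Gp1ba, Gp1bb, Gp9, Gp5 and Selp) and in 46.5% of all windows, and both were present in 4 of the 9 and in 12.6% of all windows. The windows of Ppbp and Treml1 held neither. A match of letters describes the sequence and does not show that a factor binds there.

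Pf4 encodes platelet factor 4 (CXCL4), a heparin-binding chemokine stored in alpha granules. It lies on chromosome 5 (90772435 to 90773383, plus strand, GRCm38). Pf4 was at 147.9 and 114.9 FPKM in HSCs without RBCs and at 106.4 and 100.8 FPKM in HSCs with RBCs. In LSK cells it was at 129.6 and 37.8 FPKM without RBCs and at 13.5 and 19.1 FPKM with RBCs. The 2 LSK libraries with RBCs were thus lower than the other 6, while the 2 LSK libraries without RBCs were 3.43-fold apart, more than in the other groups, where the ratio was at most 1.41. These values rest on between 59 and 818 reads per library.

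In LSK cells the mean of Pf4 was 16.3 ± 3.89 FPKM with RBCs against 83.7 ± 64.9 FPKM without (SD, n = 2), a 5.13-fold lower level and a log2 difference of -2.06 (SE 0.44). Pf4 was the only one of the 9 genes called in this comparison, in which 1.01% of all genes tested were called. The size of the difference depends on a single library. It was 2.32-fold (log2 -1.18) when the LSK Ctrl library of replicate 1 was left out and 7.95-fold (log2 -2.93) when that of replicate 2 was. The call was present in 8 of 17 settings and was lost, at the same direction, without either LSK library with RBCs, without any 1 of the HSC libraries, without a mean-variance trend, without the filter on low values (all genes with any signal), and with only the 4 LSK libraries in the fit. In HSCs the mean was 103.6 ± 3.92 FPKM with RBCs against 131 ± 23.3 FPKM without (log2 difference -0.33, SE 0.44), and the libraries did not overlap. The RBC effect on Pf4 in LSK cells minus that in HSCs was -1.73 on the log2 scale (SE 0.62) and was not called, but was called when replicate 2 of the LSK Ctrl group was left out (-2.60).

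Ppbp, the neighbour of Pf4 on chromosome 5 (90768518 to 90770063, plus strand), ends 2371 bases before Pf4 begins and encodes pro-platelet basic protein, the precursor of the neutrophil-attracting chemokine CXCL7. It was at 2.18 and 1.05 FPKM in HSCs without RBCs and at 3.33 and 1.78 FPKM in HSCs with RBCs. In LSK cells Ppbp was at 3.77 and 1.26 FPKM without RBCs and at 0.892 and 0.654 FPKM with RBCs. Both LSK libraries with RBCs were below the other 6, as for Pf4, and in LSK cells without RBCs replicate 1 was the higher one for both genes, 2.99-fold above replicate 2 for Ppbp. The log2 difference with RBCs was -0.89 (SE 0.37) in LSK cells and 0.44 (SE 0.37) in HSCs, where the libraries overlapped. As for Pf4, the LSK difference of Ppbp depends on single libraries: it was -0.35 (1.63-fold lower) without replicate 1 of the LSK Ctrl group and -1.43 (4.88-fold lower) without replicate 2, and it was -1.41 with a pseudocount of 0.1. Ppbp was called in no comparison, and its values rest on only 7 to 43 reads per library. Pf4 exceeded Ppbp between 15.2-fold and 109.8-fold within a library.

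Gp1ba encodes GPIb alpha, the subunit of the GPIb-IX-V complex that binds von Willebrand factor. It lies on chromosome 11 (70639122 to 70642036, plus strand). Gp1ba was at 2.44 and 2.78 FPKM in HSCs without RBCs and at 8.37 and 5.85 FPKM in HSCs with RBCs, and in LSK cells at 4.05 and 3.23 FPKM without and 5.63 and 6.59 FPKM with RBCs. The libraries with RBCs were the higher ones in both cell types, with no overlap. In HSCs the mean was 7.11 ± 1.78 FPKM with RBCs against 2.61 ± 0.241 FPKM without (SD, n = 2), 2.72-fold higher, and the log2 difference was 1.15 (SE 0.19). Gp1ba was the only one of the 9 genes called in HSCs, where 0.775% of all genes tested were called. The call was present in 13 of 17 settings. It was lost without either HSC library without RBCs, without replicate 1 of the HSCs with RBCs (log2 0.92), and without the filter on low values. The difference in LSK cells was 0.62 (SE 0.19), not called. The values of Gp1ba rest on between 85 and 277 reads per library.

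Gp9 encodes GPIX, which is needed to bring the complex to the cell surface. On chromosome 6 (87778072 to 87779768, plus strand), it had a different pattern from Gp1ba. Gp9 was at 18.9 and 19.6 FPKM in HSCs without RBCs and at 10.4 and 15.2 FPKM in HSCs with RBCs, and in LSK cells at 8.79 and 10.4 FPKM without and 7.48 and 11.1 FPKM with RBCs. HSCs without RBCs were the highest group, with no overlap with any other. The log2 difference with RBCs was -0.57 (SE 0.20) in HSCs and -0.06 (SE 0.20) in LSK cells, where the libraries overlapped. Within a library, Gp9 exceeded Gp1ba 7.74-fold and 7.04-fold in HSCs without RBCs, but 1.25-fold and 2.60-fold in HSCs with RBCs, and between 1.33-fold and 3.22-fold in the LSK libraries.

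Gp5 encodes GPV, the subunit that thrombin cleaves, and lies on chromosome 16 (30307685 to 30310779, minus strand). Its levels were 11.2 and 11.5 FPKM in HSCs without RBCs, 13.2 and 18.7 FPKM in HSCs with RBCs, 14.9 and 18.02 FPKM in LSK cells without RBCs, and 20.2 and 19.8 FPKM in LSK cells with RBCs. HSCs without RBCs were the lowest group and LSK cells with RBCs the highest, neither of them overlapping with another group. The log2 difference with RBCs was 0.44 (SE 0.16) in HSCs and 0.27 (SE 0.16) in LSK cells, neither of them called.

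Gp1bb encodes GPIb beta, which is joined to GPIb alpha by disulfide bonds. It lies on chromosome 16 (18620317 to 18622403, minus strand), and 91.1% of its exon bases also belong to exons of Sept5 on the same strand. Exons of Gm49601, also on that strand, share 41.5% of them, so reads there could be split by the counting. The level listed for Sept5 was at most 0.316 FPKM, and none was listed for Gm49601. Gp1bb was at 8.07 and 7.60 FPKM in HSCs without RBCs and at 8.42 and 11.3 FPKM in HSCs with RBCs, and in LSK cells at 6.57 and 6.66 FPKM without and 6.57 and 7.22 FPKM with RBCs. Both HSC groups lay above both LSK groups, and the log2 difference with RBCs was 0.28 (SE 0.15) in HSCs and 0.05 (SE 0.15) in LSK cells. Summed over the 4 subunits, the complex was at 40.6 to 41.5 FPKM in HSCs without RBCs, 40.5 to 51.0 FPKM in HSCs with RBCs, 34.3 to 38.3 FPKM in LSK cells without RBCs and 39.9 to 44.8 FPKM in LSK cells with RBCs. The sum overlapped between HSCs with and without RBCs, whereas its makeup, given by the ratios of Gp9 to Gp1ba, did not.

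**Figure D2:**
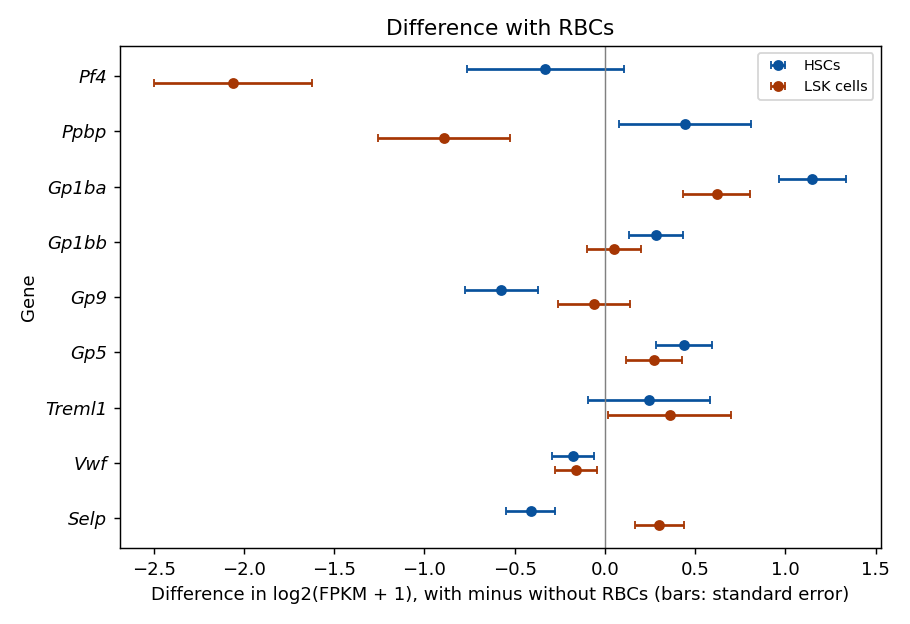
Difference in log2(FPKM + 1) with minus without RBCs for the 9 genes that passed the filter, in HSCs (blue) and LSK cells (red), with bars for the standard error of the fit. Pf4 and Ppbp lie furthest to the left in LSK cells, at -2.06 and -0.89, and Gp1ba lies furthest to the right in HSCs, at 1.15.

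Treml1 encodes TLT-1, a receptor of alpha granule membranes with an inhibitory (ITIM) motif, and lies on chromosome 17 (48359916 to 48367176, plus strand). It was at 3.82 and 3.71 FPKM in HSCs without RBCs and at 3.29 and 6.45 FPKM in HSCs with RBCs. In LSK cells Treml1 was at 4.02 and 5.41 FPKM without RBCs and at 4.10 and 9.37 FPKM with RBCs. The replicates with RBCs lay so far apart that they overlapped those without RBCs in both cell types. The log2 difference was 0.25 (SE 0.34) in HSCs and 0.36 (SE 0.34) in LSK cells, and it turned negative, to -0.15 in each cell type, without replicate 2 of the RBC group.

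Vwf encodes von Willebrand factor, the large multimeric ligand of GPIb alpha, stored in alpha granules and in endothelial cells. It lies on chromosome 6 (125546774 to 125686679, plus strand). Vwf was at 13.4 and 13.7 FPKM in HSCs without RBCs and at 12.4 and 11.3 FPKM in HSCs with RBCs, and in LSK cells at 5.82 and 5.91 FPKM without and 5.40 and 4.90 FPKM with RBCs. All 4 HSC libraries were above all 4 LSK libraries, and in each cell type the libraries with RBCs were slightly lower, with no overlap. HSCs exceeded LSK cells 2.31-fold both without RBCs (log2 difference of LSK cells from HSCs -1.08, SE 0.12) and with RBCs (-1.07, SE 0.12). Both differences were called in all 17 settings. The differences with RBCs were small, at -0.18 in HSCs and -0.16 in LSK cells (SE 0.12 each). Vwf had between 522 and 1708 reads per library.

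Selp encodes P-selectin, an adhesion receptor that moves from alpha granules to the surface of activated platelets and binds leukocytes. It lies on chromosome 1 (164115264 to 164150026, plus strand), where the opposite strand carries the RNAs Gm16587 and Gm16548 over 4.22% and 9.93% of its exon bases, and since the library kit does not mark strand, reads there cannot be told apart. Selp was at 38.7 and 35.9 FPKM in HSCs without RBCs and at 24.6 and 31.4 FPKM in HSCs with RBCs, and in LSK cells at 18.7 and 18.4 FPKM without and 20.6 and 25.9 FPKM with RBCs. With RBCs both libraries were lower in HSCs (log2 difference -0.41, SE 0.14) and both higher in LSK cells (0.30, SE 0.14), so the cell types, apart by 2.01-fold without RBCs, overlapped with RBCs. Neither difference was called, and the LSK difference exceeded the HSC difference by 0.71 on the log2 scale (SE 0.19).

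Between LSK cells and HSCs without RBCs, 1 of the 9 genes was called (Vwf, lower), where 2.66% of all genes tested were called. With RBCs 2 of the 9 were called (Pf4 and Vwf, both lower), where 3.61% of all genes tested were called. Pf4 was 6.36-fold lower in LSK cells than in HSCs with RBCs (log2 difference -2.61, SE 0.44), called in all 17 settings. Without RBCs the difference of Pf4 was -0.88 (SE 0.44), and it lay at -1.76, and was called, without replicate 1 of the LSK cells and at -0.01 without replicate 2. Gp9 and Selp, each 2.01-fold lower in LSK cells without RBCs (log2 -0.94 and -0.97), were just short of 2-fold on the log2 scale, and with a pseudocount of 0.1 both were called. Gp9 was also called without replicate 2 of the LSK group (log2 -1.05), and Selp without replicate 2 of the HSC group (-1.02). The 4 comparisons within and between cell types share libraries: each group enters 2 of them.

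**Figure D3:**
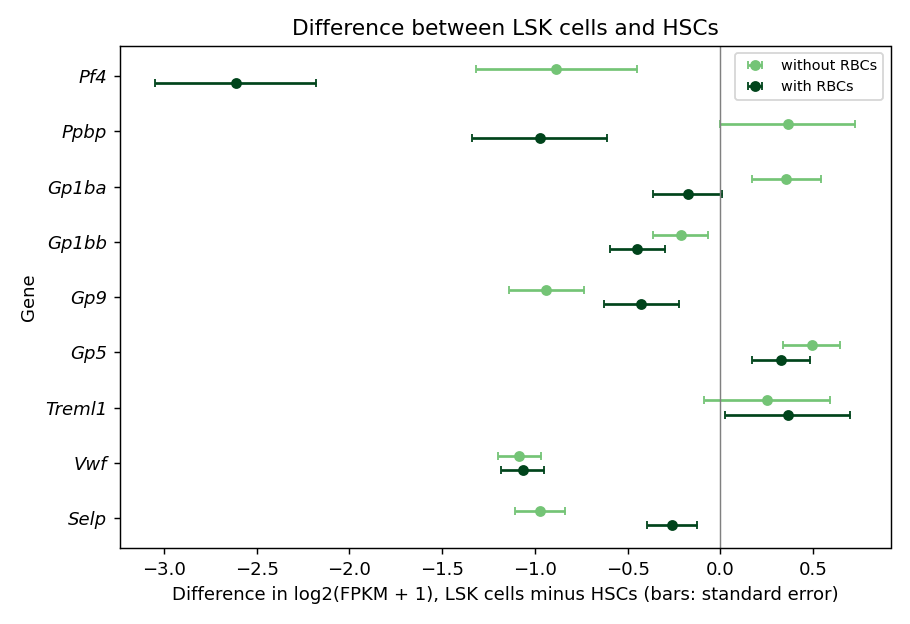
Difference in log2(FPKM + 1) of LSK cells minus HSCs for the 9 genes that passed the filter, without RBCs (light green) and with RBCs (dark green), with bars for the standard error of the fit. Vwf lies at -1.08 and -1.07 without and with RBCs, while Pf4 lies at -0.88 without and -2.61 with RBCs.

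As a list, the 9 genes had no common direction with RBCs. In HSCs 3 had both RBC libraries above both others and 4 had both below, together 7 of 9, where 19.9% of all genes tested lay above, 21.8% below and 41.7% either way. In LSK cells 3 lay above and 3 below, where the shares over all genes were 24.2%, 26.4% and 50.7%. The median log2 difference of the 9 genes with RBCs was 0.25 in HSCs and 0.05 in LSK cells; over all genes tested it was -0.01 in each cell type. For LSK cells against HSCs it was -0.21 without RBCs, with 3 genes higher and 4 lower without overlap (28% and 26.9% of all genes tested, 54.8% either way), and -0.43 with RBCs, with 1 higher and 4 lower (33.7% and 33.1%, 66.8% either way); the median over all genes tested was 0.01 in both. For the difference between the RBC effects the median was -0.17, and 0 of the 9 genes were called by limma, where 0.108% of all genes tested were called. An unadjusted limma p under 0.05 was reached by 3 of the 9, and the share of all genes at that threshold is not given here. The 9 genes were chosen with results known, so this count is a description only. Across the 8 libraries, which share their groups, Pearson's r between pairs of the 9 genes ran from -0.79 for Pf4 and Gp5 to 0.92 for Gp9 and Selp.

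A further 65 genes of megakaryocytes and platelets, grouped by role, were found in the files, and 57 of them passed the filter. In HSCs 1 of these 57 was called with RBCs, in LSK cells 2 were, all of them higher, and between LSK cells and HSCs 5 were called in each condition, 4 higher and 1 lower. The shares over all genes tested are those given above. With RBCs 27 of the 57 lay higher and 9 lower without overlap in HSCs, where 19.9% and 21.8% of all genes tested did. In LSK cells 22 lay higher and 13 lower, where the shares were 24.2% and 26.4%. The lists were chosen with earlier results known, so these counts are a description. Thbs1, which encodes the alpha granule protein thrombospondin-1, rose with RBCs in both cell types, from 8.68 and 7.93 FPKM to 30.0 and 30.2 FPKM in HSCs (log2 difference 1.74, SE 0.19, adjusted p = 0.00197) and from 22.9 and 38.0 FPKM to 119.4 and 138.6 FPKM in LSK cells (2.09, SE 0.19, adjusted p = 0.000687). Its libraries with RBCs lay far above those without in each cell type. Cd36, which encodes a receptor for thrombospondin, rose in LSK cells from 0.310 and 0.493 FPKM to 2.67 and 3.33 FPKM (1.51, SE 0.17, adjusted p = 0.00239). In HSCs Cd36 was at 1.19 and 1.11 FPKM without and at 2.68 and 2.95 FPKM with RBCs, with no overlap, and its difference passed the adjusted p but was short of 2-fold on the log2 scale (0.83, SE 0.17, adjusted p = 0.0416).

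Of the 9 alpha granule and secreted genes that passed, Thbs1 was also higher in LSK cells than in HSCs in both conditions, and Mmrn1, which encodes the factor V carrier multimerin 1, was lower in both. Mmrn1 was at 50.8 to 64.9 FPKM in the 4 HSC libraries and at 21.3 to 25.5 FPKM in the 4 LSK libraries, with log2 differences of -1.23 without and -1.34 with RBCs (SE 0.09, adjusted p = 4.4e-05 and 2.1e-05), an order of HSCs above LSK cells that was also seen for Vwf. Serpine2, which encodes the thrombin inhibitor protease nexin-1, was called higher in LSK cells without RBCs (1.19, SE 0.12, adjusted p = 0.000383). With RBCs Serpine2 was also higher in LSK cells, with no overlap, but short of 2-fold (0.80, SE 0.12, adjusted p = 0.00203). F13a1, which encodes the A chain of factor XIII, was called higher in LSK cells with RBCs (1.60, SE 0.37, adjusted p = 0.0129). It was at 2.83 and 5.41 FPKM there against 0.146 and 1.32 FPKM in HSCs with RBCs. The call of F13a1 was lost without the filter on low values (adjusted p = 0.0529) and when replicate 1 of the HSCs with RBCs (1.10, adjusted p = 0.0826) or replicate 2 of the RBC-treated LSK cells (1.23, adjusted p = 0.0981) was left out. Srgn, which encodes the granule proteoglycan serglycin and had the highest mean of this role, was at 768 to 1039 FPKM and was not called.

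Among the 14 signalling genes, Fcer1g, which encodes the signalling chain paired with GPVI, was at 73.8 to 101.9 FPKM in HSCs and at 209 to 241 FPKM in LSK cells (log2 differences 1.31 and 1.48, SE 0.08 and 0.08, adjusted p = 1.6e-05 and 6.3e-06), although Gp6 itself was listed at 0. Plek, which encodes the protein kinase C substrate pleckstrin, was at 30.3 to 35.4 FPKM in HSCs and at 71.6 to 76.8 FPKM in LSK cells (1.04 and 1.26, SE 0.07, adjusted p = 3.9e-05 and 1.0e-05). Lat, an adaptor of the GPVI and T cell receptor pathways, moved in opposite directions with RBCs: from 14.6 and 15.4 FPKM to 21.3 and 23.6 FPKM in HSCs and from 20.9 and 19.6 FPKM to 13.3 and 12.3 FPKM in LSK cells. The LSK effect minus the HSC effect was -1.17 (SE 0.14, adjusted p = 0.0189), and Lat was the only one of the 57 genes called for it. This call was lost without any 1 of the 8 libraries (adjusted p between 0.0503 and 0.123). Tbxas1, which encodes thromboxane synthase, was at 89.4 to 149.8 FPKM and was not called.

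Of the 15 surface receptor genes that passed, none was called between the cell types by limma (7 without and 11 with RBCs had an unadjusted p under 0.05). The share of all genes tested is not given here for an unadjusted p, nor for the adjusted p alone between the cell types. Counts at these thresholds in this paragraph are therefore a description only. On the adjusted p alone, without the 2-fold threshold, 1 was higher and 5 were lower in LSK cells without RBCs. With RBCs 0 were higher and 7 lower. For cells with against without RBCs, 3 were higher and 0 lower in HSCs, and 1 was higher and 2 lower in LSK cells. The 3 in HSCs were P2rx1 (log2 difference 0.91, SE 0.11, limma adjusted p = 0.00361), Itgb3 (0.88, SE 0.14, limma adjusted p = 0.0130) and Cd36. The counts over all genes for the RBC comparisons are those given for the signalling genes. The tetraspanins Cd63 and Cd9 had the highest means of this role, and Cd9 was at 257 to 312 FPKM in HSCs and at 152 to 204 FPKM in LSK cells. None of the 12 transcription factor genes was called in any of the 5 contrasts by limma, with 1 to 5 of the 12 at an unadjusted p under 0.05 in each. On the adjusted p alone, 3 of the 12 passed between the cell types in each condition and 0 in the other contrasts. Nfe2, which encodes a factor needed for platelet release, was at 349 to 411 FPKM in the 8 libraries. Gfi1b, a repressor of megakaryocytic and erythroid cells, was at 103 to 121 FPKM in HSCs and 170 to 205 FPKM in LSK cells. Its difference between the cell types passed the limma adjusted p but was short of 2-fold (log2 0.58 without and 0.90 with RBCs, SE 0.08, adjusted p = 0.00132 and 9.1e-05). None of the 7 cytoskeletal genes that passed was called either (1 to 3 of the 7 at an unadjusted p under 0.05), among them Bin2 at 363 to 525 FPKM and Fermt3, which encodes the integrin activator kindlin-3, at 191 to 235 FPKM. On the adjusted p alone, 1 passed with RBCs in HSCs, 2 with RBCs in LSK cells, and 1 and 3 between the cell types without and with RBCs. The gene that passed in HSCs was Bin2 (log2 difference 0.35, SE 0.05, limma adjusted p = 0.0118).

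**Figure D4:**
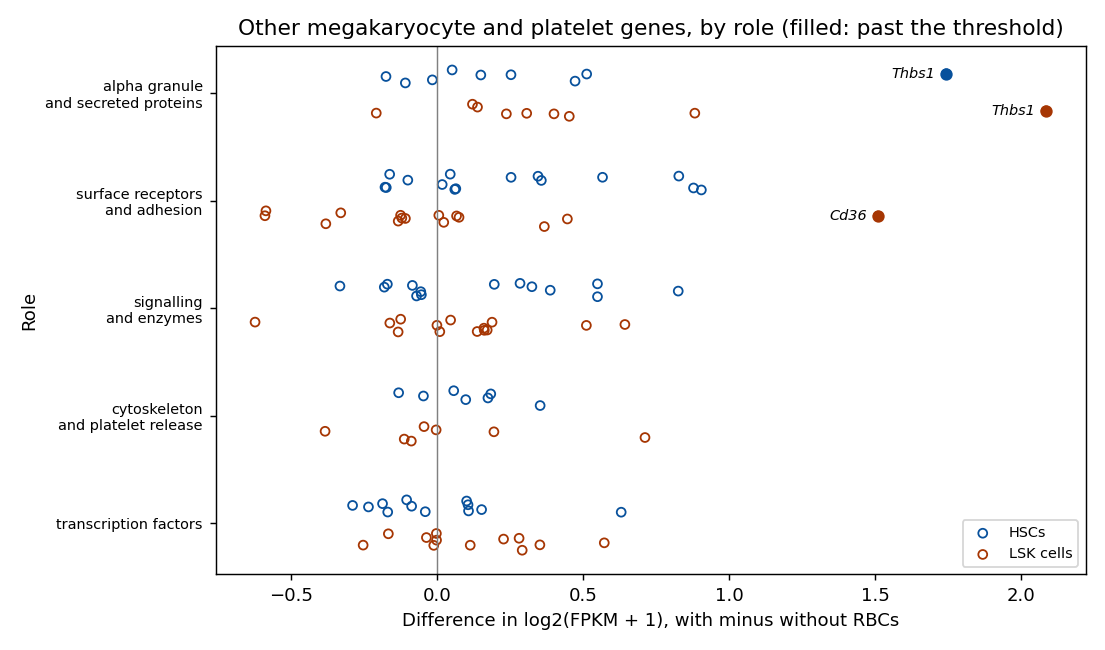
Difference in log2(FPKM + 1) with minus without RBCs for the 57 further megakaryocyte and platelet genes that passed the filter, by role, in HSCs (blue) and LSK cells (red), filled where the gene was called. Thbs1 at 1.74 and 2.09 and Cd36 at 1.51 lie apart from the others, which are all below 1.

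Of the 8 further genes that did not pass the filter, 3 are named here after their values were seen. Tubb1, the beta-1 tubulin of the platelet marginal band, was at 0.192 to 0.828 FPKM, Myl9, the myosin light chain of contracting platelets, at 0 to 0.155 FPKM, and P2ry12, the platelet ADP receptor, at 0 to 0.952 FPKM. The other 5 (Sparc, Itga2, Mpig6b, Cd226 and Parvb) were all below 1 FPKM in every library. The highest values of P2ry12 and Tubb1 were above the lowest value of Ppbp, 0.654 FPKM.

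Markers of other blood cells were counted as higher or lower with RBCs where the libraries did not overlap, which holds for 19.9% (higher) and 21.8% (lower) of all genes tested in HSCs and for 24.2% and 26.4% in LSK cells. The summed FPKM of 8 red blood cell genes went from 4.74 to 5.26 without RBCs to 94.3 to 127 with RBCs in HSCs and from 5.64 to 7.21 to 44.6 to 51.6 in LSK cells, with 3 and 5 of the 8 genes higher and 0 lower, led by Hba-a1. None of the 8 was at 0 in every library. Of 10 neutrophil genes, 8 were higher and 0 lower with RBCs in each cell type, and the sum over the list went from 8.54 to 10.6 to 46.4 to 254 in HSCs and from 129 to 221 to 365 to 572 in LSK cells. Of 8 monocyte and macrophage genes, 3 in HSCs and 6 in LSK cells were higher and 0 lower, with C1qa at 0 throughout and sums of 89.9 to 115.1 and 110 to 116 in HSCs without and with RBCs and of 70.0 to 82.4 and 157 to 162 in LSK cells. Of 6 mast cell and basophil genes, 0 were higher and 3 lower in HSCs, where the sum went from 5.81 to 7.28 down to 1.47 to 1.56, and 3 were higher and 1 lower in LSK cells (29.3 to 46.5 without and 38.0 to 100.9 with RBCs). The sum of 100.9 comes from replicate 1, where Prss34 was at 52.4 FPKM against 0.646 FPKM in replicate 2. Of 7 B and T cell genes, 1 was higher and 1 lower in HSCs (35.7 to 40.3 and 34.7 to 36.1), and 2 were higher and 0 lower in LSK cells (38.7 to 41.5 and 49.6 to 51.7). These sums are mostly Cd79b, at 34.1 to 51.0 FPKM, and no other gene of the list was above 1.39 FPKM. Of 11 marker genes of HSCs and LSK cells, 2 were higher and 7 lower in HSCs and 5 higher and 6 lower in LSK cells, and Slamf1 was at 5.50 and 6.59 FPKM in HSCs with RBCs, below both HSC libraries without RBCs. The sum over these 11 genes was 1096 to 1139 FPKM without and 1290 to 1489 FPKM with RBCs in HSCs and 1313 to 1409 FPKM and 1218 to 1270.4 FPKM in LSK cells. The monocyte gene Csf1r was at 2.53 and 2.81 FPKM in HSCs without RBCs, 7.07 and 9.37 FPKM in HSCs with RBCs, 14.1 and 22.8 FPKM in LSK cells without RBCs and 47.2 and 54.3 FPKM in LSK cells with RBCs, the same order of group means as Thbs1, for which HSCs with RBCs and LSK cells without RBCs overlapped. Csf1r was picked from the 8 genes of its list after the values were seen. In LSK cells against HSCs, 3 of the 8 were higher and 1 lower without RBCs (28% and 26.9% of all genes tested). With RBCs 5 were higher and 1 lower (33.7% and 33.1%). Cd68 went against Csf1r, at 85.9 and 107 FPKM in HSCs without RBCs and 43.8 and 48.6 FPKM in LSK cells without RBCs. The part of these other blood cells in the values of Thbs1, Cd36, F13a1, Fcer1g, Plek and the 10 genes was not tested.

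The genes whose pattern over the 8 libraries was most like the mean pattern of the 9 genes were Zcchc17 and Inha (Pearson's r = 0.98 each) and Epdr1, Smarca4 and Zadh2 (0.97 each). Those most like Pf4 were Tmed1 (0.99), Abhd17a and Atp2b1 (0.98 each). Vwf was most like Dnajc15, Hmgn1 and Ap2s1 (0.996, 0.995 and 0.994), and Selp most like Ctdspl, Oas3 and Sgms1 (0.98 each). With 12003 genes compared over 8 libraries that form 4 groups, these values describe likeness and carry no test.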

How the data were processed

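The 8 libraries were made from total RNA as full-length cDNA with a SMART-Seq HT kit and a Nextera XT kit, which do not mark strand, and sequenced on an Illumina HiSeq instrument. The authors deposited 1 FPKM value for each of 24346 gene symbols in each library, and replicates were not pooled. The submitters' processing notes name TopHat2 2.1.1, Bowtie2 2.2.8, SAMtools 0.1.18, Cuffdiff 2.2.1 and the build mm10, while the gene annotation is not given in the sources used here.

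Groups were taken from the sample labels. From the deposited FPKM, log2(FPKM + 1) was computed for the 12003 genes that reached 1 FPKM in 2 or more libraries. The 4 group means were fitted with limma 3.58.1 in R 4.3.3 with a mean-variance trend (4 residual and 5.18 prior degrees of freedom), and p-values were adjusted by Benjamini-Hochberg over all genes tested. The 5 contrasts compared cells with and without RBCs for each cell type, the RBC effect of LSK cells with that of HSCs, and the cell types with each other for each culture. The procedure was tested on simulated data. The members, the lists of further genes and the comparisons were chosen with earlier results of these data known. Of the further genes, those called in at least 1 contrast and the 2 per role with the highest mean are named. The 5 genes most like the mean pattern and the 3 most like each of Pf4, Vwf and Selp are named as well. Tubb1, Myl9, P2ry12 and the other genes below the filter, and the marker genes with values, were named after their values were seen. So were P2rx1, Itgb3 and Ptgs1.

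Low genes (mean FPKM below 1, signal in 4 or more libraries) numbered 3659, of which 88.2% had values that were whole multiples of 1 step in all 8 libraries (tolerance 0.05), which gave relative depth and, for 7 of the 10 genes, numbers of reads, as lower bounds if all values of a gene share a factor; reads without molecular identifiers are not independent molecules. Gene positions came from GENCODE M21 (GRCm38, the sequence of mm10), and promoters from RefSeq (GRCm38.p6). Alternatives were a pseudocount of 0.1, a pair of other filters, median ratio scaling, quantile normalization, no trend, only the 4 libraries of a contrast, a replicate block, no fold threshold, and the omission of each library in turn.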

Additional observations from a re-analysis of the deposited data

Results flagged for a closer look

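Selp, the gene of P-selectin, was picked out because its libraries moved in opposite directions in the cell types: both HSC libraries with RBCs lay below both without, at 24.6 and 31.4 FPKM against 38.7 and 35.9 FPKM, and both LSK libraries with RBCs lay above both without, at 20.6 and 25.9 FPKM against 18.7 and 18.4 FPKM. The RBC effect in LSK cells minus that in HSCs was 0.71 on the log2 scale. It was not called in the limma fit over all genes, and no p is given for it, since Selp was chosen with results known.

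Lat, the adaptor of the GPVI pathway, was picked out by the interaction term of the limma fit, at -1.17 on the log2 scale (adjusted p = 0.0189), with Lat higher with RBCs in both HSC libraries and lower in both LSK libraries. The adjusted p was 0.0695 without a trend, 0.0885 without the filter on low values, and between 0.0503 and 0.123 when 1 library was left out.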

How the results depend on the processing

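Each group has 2 libraries, the absolute depth is unknown, and leaving out a library leaves 1 group with a lone library that is assumed to vary like the other groups. No result changed sign while called. The median differences of the 9 genes moved by less than the spread between replicates under all alternatives other than the omission of a library, and with 1 library left out they ranged from -0.11 to 0.26 for RBCs in HSCs, from -0.10 to 0.20 for RBCs in LSK cells, from -0.30 to -0.04 for the difference between these effects, from -0.25 to -0.00873 for LSK cells against HSCs without RBCs and from -0.64 to -0.17 with RBCs. The counts of further genes called ranged from 1 to 3 in HSCs (Itgb3 and P2rx1 were added without replicate 1 of the HSCs with RBCs), stayed at 2 in LSK cells, were 0 for the difference between the effects, and ranged from 5 to 7 and from 5 to 6 between the cell types without and with RBCs. Without a fold threshold 9 further genes passed in HSCs, 8 in LSK cells, 23 between the cell types without RBCs and 27 with RBCs. A pseudocount of 0.1 gave 9 between the cell types without RBCs. Without the filter on low values (all genes with any signal), and without a trend, 0 passed for the difference between the effects.

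With the replicate number as a replicate block, 0 further genes passed for the difference between the effects, and no other call of the further genes or of the 9 genes changed. The numbers do not pair the libraries: the correlation of deviations of same-numbered libraries lay between -0.07 and 0.10. The difference between the effects was not fitted with 4 libraries only, since it needs all 8.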
